A study of Mus musculus with 8 samples.

Results

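The 9 genes described here carry the hepatic programme that turns carbohydrate into fatty acids: Srebf1, Fasn, Acaca, Scd1, Elovl6, Acly, Mlxipl, Thrsp and Pnpla3. They were taken as a list of genes by name. The data were peak lists of the glucocorticoid receptor (GR) from mouse liver. Overlapping regions of the 6 GR lists were merged into 51431 sites, and a site belonged to a gene when its centre lay within 50 kb of the gene start in the mm10 build (GENCODE release M21). By this rule 120 sites fell at the 9 loci, of 38337 sites within 50 kb of the start of any protein-coding gene. The list of FOXO1 regions held 8068 entries, 17 of them at the same loci.

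Every library came from liver of adult male C57BL/6J mice sampled at the onset of the dark phase. The control group (ctrl.) had food only at night. The caloric restriction group (cal. res.) received a reduced ration at lights-off. The CORT group was fed at night as ctrl. was and received corticosterone, injected daily shortly before lights-off per the methods of the study, while the label says supplementation. Each group had 2 libraries, and FOXO1 was profiled in cal. res. only, as 1 list merged from 2 libraries. Whether the ctrl. mice were injected with vehicle, and whether a library held 1 animal or a pool, was not given in the sources used here, so the spread between libraries may be partly technical. These were whole livers, so binding in hepatocytes and in other liver cells cannot be told apart.

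The GR is a nuclear receptor that binds corticosterone, the main glucocorticoid of rodents, and then contacts chromatin at glucocorticoid response elements or beside other factors. De novo lipogenesis runs from citrate through acetyl-CoA and malonyl-CoA to long-chain fatty acids, and its enzymes are induced by feeding through insulin and glucose. FOXO1 is a forkhead factor that insulin keeps out of the nucleus and that is active in fasting.

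The lists differed in length, from 12458 regions in ctrl. replicate 2 to 39136 in CORT replicate 2, and ctrl. replicate 1 held 36234. Library names inside the lists came in 2 styles, one shared by ctrl. replicate 1 and both CORT libraries, the other by ctrl. replicate 2 and both cal. res. libraries. The labels do not say what the styles mark, so style and group cannot be told apart between cal. res. and CORT. As a check of tissue, a region lay within 10 kb of the start of all 6 hepatocyte genes examined (Alb, Ttr, Apoa1, Apoa2, Fgb and Tat) in all 6 lists. None of the 6 lists held one at any of 6 genes of other tissues (Myod1, Neurod1, Ins2, Cd3e, Gfap and Myh6).

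The sequences under the peaks are shown first, for the sites on which the results turn. Each is read from the reference in the direction of its gene. Bases of annotated untranslated regions were left out. Capitals mark matches to any of 9 consensus strings searched on both strands. The strings were the core of the glucocorticoid response element (ACANNNTGT), the GR half-site (AGAACA), the forkhead string (GTAAACA), C/EBP (TTGCNNAA), HNF4 (CAAAGTCCA), STAT (TTCNNNGAA), the sterol regulatory element (TCACNCCAC), the E-box (CACGTG) and the direct repeat DR1 (AGGNCANAGGNCA). The first 3 sequences surround the summits of leading sites, the sites that ranked highest on average at their gene, at Thrsp (chr7:97418815-97419014), Elovl6 (chr3:129532127-129532326) and Srebf1 (chr11:60210466-60210587). The next pair lie at the annotated starts of Srebf1 (chr11:60222900-60223099) and Scd1 (chr19:44407710-44407819), whose peaks were missing in cal. res. The following stretch precedes the inner start of Mlxipl (chr5:135106641-135106901, RefSeq promoter, GRCm38.p6). The one after it precedes the start of Fasn (chr11:120824548-120824797, RefSeq promoter, GRCm38.p6). The last is the only site held by cal. res. with no ctrl. peak, upstream of Elovl6 (chr3:129527205-129527404).
Thrsp upstream summit: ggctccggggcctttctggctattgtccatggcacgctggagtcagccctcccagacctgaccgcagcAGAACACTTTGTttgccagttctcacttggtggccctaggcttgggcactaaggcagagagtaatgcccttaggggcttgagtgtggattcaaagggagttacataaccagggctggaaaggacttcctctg
Elovl6 start: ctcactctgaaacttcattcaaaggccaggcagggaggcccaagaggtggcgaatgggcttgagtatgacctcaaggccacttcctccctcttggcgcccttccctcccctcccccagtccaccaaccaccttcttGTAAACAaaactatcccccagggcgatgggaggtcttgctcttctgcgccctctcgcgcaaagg
Srebf1 inner start: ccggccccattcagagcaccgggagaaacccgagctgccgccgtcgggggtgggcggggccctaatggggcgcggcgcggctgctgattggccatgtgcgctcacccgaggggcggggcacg
Srebf1 outer start: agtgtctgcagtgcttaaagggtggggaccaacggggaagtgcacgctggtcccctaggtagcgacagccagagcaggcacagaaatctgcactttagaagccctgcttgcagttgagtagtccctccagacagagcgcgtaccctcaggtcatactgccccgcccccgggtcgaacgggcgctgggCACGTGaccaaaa
Scd1 start: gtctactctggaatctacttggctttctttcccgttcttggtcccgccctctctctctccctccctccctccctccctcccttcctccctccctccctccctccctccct
Mlxipl inner start: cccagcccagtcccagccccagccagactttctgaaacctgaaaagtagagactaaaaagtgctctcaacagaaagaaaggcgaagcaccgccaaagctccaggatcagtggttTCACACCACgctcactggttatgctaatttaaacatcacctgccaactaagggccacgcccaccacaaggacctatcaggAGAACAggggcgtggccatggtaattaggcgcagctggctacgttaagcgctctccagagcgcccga
Fasn promoter: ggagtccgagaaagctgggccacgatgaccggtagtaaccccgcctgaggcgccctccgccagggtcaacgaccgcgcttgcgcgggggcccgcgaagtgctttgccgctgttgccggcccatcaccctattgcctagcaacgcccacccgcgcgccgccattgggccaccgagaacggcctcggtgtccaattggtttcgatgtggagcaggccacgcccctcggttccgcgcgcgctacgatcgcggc
Elovl6 upstream repeat: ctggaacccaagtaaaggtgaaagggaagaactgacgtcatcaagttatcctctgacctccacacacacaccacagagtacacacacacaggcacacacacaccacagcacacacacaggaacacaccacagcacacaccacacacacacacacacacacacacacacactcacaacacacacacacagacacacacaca

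In the Thrsp window the half-site and the core of the response element share bases. It was the only one of the 9 leading sites with the core, and 5 of the 120 locus sites held it against 8.74% of all GR sites on the assembled chromosomes. The half-site occurred in 17 of the 120 locus windows, or 14.2%, and in 18.4% of all windows. At the Elovl6 start the forkhead string lay within a site that overlapped FOXO1. Of the 16 locus sites that overlapped FOXO1, 4 held this string, and 1 of the other 104 did, while the share was 13.9% over all sites that overlap FOXO1 and 5.19% over all sites. At the outer start of Srebf1 and at the outer start of Mlxipl the window held an E-box, the string bound by USF and ChREBP. The E-box occurred in 7 of the 120 locus windows, or 5.83%, and in 4.72% of all windows. The sterol regulatory element, the string of SREBP-1, occurred in 1 of 120 locus windows and in 0.795% of all windows, and it also stands in the stretch before the inner start of Mlxipl. Of the 9 genes, 8 had an entry in the RefSeq promoter table, with 11 starts in all, and this was the only one of the 11 with that string, against 1.24% of all promoters. An E-box stood in 1 of the 11, against 7.15% of all promoters. The later part of the Scd1 stretch was ccct repeat. The Elovl6 upstream window contained several ca repeats, the longest of 31 bases, and 81.5% of its bases were c or a. Only 0.0292% of all windows, 15 of 51428, reached that composition on either strand. How uniquely reads can be placed in these repeats was not tested.

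Each of the 9 loci held more GR sites than the median protein-coding gene. Elovl6, the elongase of palmitate (chr3:129532355-129638495, plus strand), had 19 sites. Srebf1, which encodes SREBP-1 (chr11:60199089-60222581, minus strand), had 18. Fasn, the fatty acid synthase (chr11:120805846-120824547, minus strand), had 16, and Acly, which makes acetyl-CoA from citrate (chr11:100476353-100528000, minus strand), had 14. The gene of the glucose-responsive factor ChREBP, Mlxipl (chr5:135089890-135138382, plus strand), had 13. Pnpla3, a lipid droplet protein induced by feeding (chr15:84167837-84187236, plus strand), had 12, and Scd1, the stearoyl-CoA desaturase (chr19:44394455-44407879, minus strand), had 11. Acaca, the cytosolic acetyl-CoA carboxylase (chr11:84129672-84401651, plus strand), had 10. Thrsp, a small protein that rises with lipogenesis (chr7:97412938-97417730, minus strand), had 7. Over all 21938 protein-coding genes the median was 3 sites and the 90th percentile 11. Thrsp had the fewest, yet still more than 73.9% of protein-coding genes. The counts and their order moved with the settings. With every list cut to its 12458 regions of lowest p-value, Elovl6 had 9 sites, Srebf1, Acly and Mlxipl 7 each, Scd1 6, Fasn and Pnpla3 5 each, and Acaca and Thrsp 4 each. Within 25 kb Srebf1 kept 16 and Elovl6 8, and without ctrl. replicate 1 Fasn had 10. Of the 120 summits, 69 lay in introns, 33 between genes and 18 in exons.

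**Figure D1:**
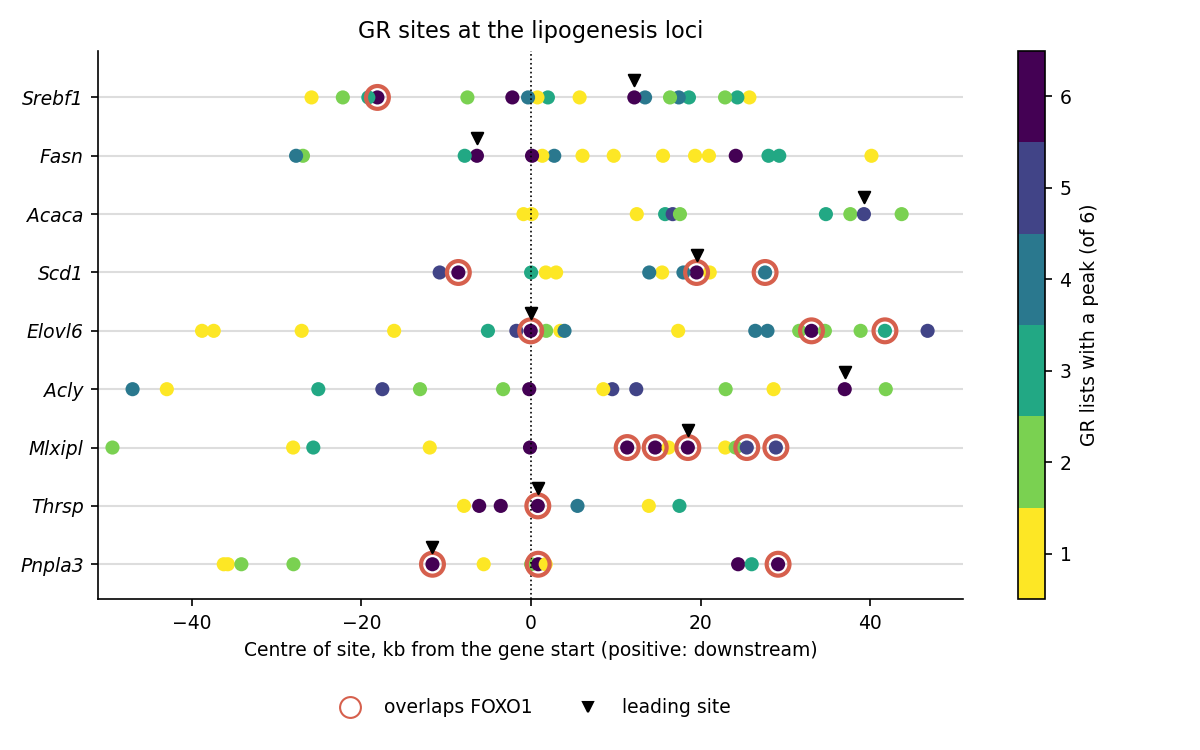
Position of the 120 GR sites, in kb from the start of each gene, with positive values downstream. Colour gives the number of the 6 lists with a peak, red rings mark overlap with FOXO1 and triangles the leading site. Sites of all 6 lists lay at 8 of the 9 genes, Acaca being the exception, and Mlxipl carried 5 of the 16 rings.

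Whether the loci as a set gained or lost binding was asked first by the number of sites with a peak. In ctrl. 88 and 28 of the 120 sites had a peak, in cal. res. 46 and 45, and in CORT 68 and 92. The ctrl. libraries lay at both ends, so the groups overlapped for cal. res. against ctrl. (difference in means -12.50 sites, exact permutation p = 1, two-sided, 2 against 2). The same held for CORT against ctrl. (22.00 sites, exact permutation p = 0.667). With 2 against 2 libraries the smallest p possible was 0.333. Without ctrl. replicate 1 the cal. res. difference turned to 17.50, and without ctrl. replicate 2 the CORT difference turned to -8.00. Each of these sets libraries of 1 name style side by side.

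Per 10000 regions of a list, the loci took 25.11 and 26.49 in the ctrl. pair, 22.90 and 25.60 under cal. res. and 24.43 and 24.02 under CORT. The exact binomial 95% interval ran from 18.24 to 37.18 in the shortest list and from 19.41 to 29.39 in the longest, and each of the 6 intervals held the other 5 values. Such intervals cover counting error only. The cal. res. mean differed from ctrl. by -1.55 (exact permutation p = 0.667). The CORT mean differed from ctrl. by -1.58, with both CORT values under both ctrl. values (exact permutation p = 0.333, the smallest possible).

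The place of a site in its own list was read as the percentile of fold enrichment, in which 100 is the strongest region. This percentile moved with list length: over the 6402 sites found in all 6 lists near protein-coding starts, its mean was 57, 62.6, 66.8, 76.2, 79.7 and 81.8 in lists of 12458, 18747, 22707, 29473, 36234 and 39136 regions. Both CORT lists were longer than both cal. res. lists, so percentiles of these groups can differ through list length alone. Values from lists of equal length are therefore given for the group means and for many of the single sites. At the 23 sites with a peak in all 6 lists, the mean percentile was 86.6 and 64.1 in the ctrl. pair, 68.1 and 68.3 under cal. res. and 75.6 and 85.9 under CORT. The cal. res. values stood between the ctrl. values (difference -7.12, exact permutation p = 1), and CORT overlapped ctrl. too (5.38, exact permutation p = 1). Without ctrl. replicate 1 the cal. res. difference was 4.13, and without ctrl. replicate 2 the CORT difference was -4.63. Both cal. res. libraries lay below both CORT libraries, by -12.50 on average (exact permutation p = 0.333, the smallest possible). With lists of equal length 15 locus sites had a peak in all 6, and the difference was -4.92 (exact permutation p = 0.667). Cal. res. minus ctrl. was then -3.45 (exact permutation p = 0.667) and CORT minus ctrl. 1.47. Over all 3645 such sites at equal length, cal. res. minus ctrl. was -0.72, CORT minus ctrl. 0.56 and cal. res. minus CORT -1.27. In the full lists, over all 6402 such sites near protein-coding starts, the same 3 differences were -3.69, 10.63 and -14.32, each of the same sign as at the loci.

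**Figure D2:**
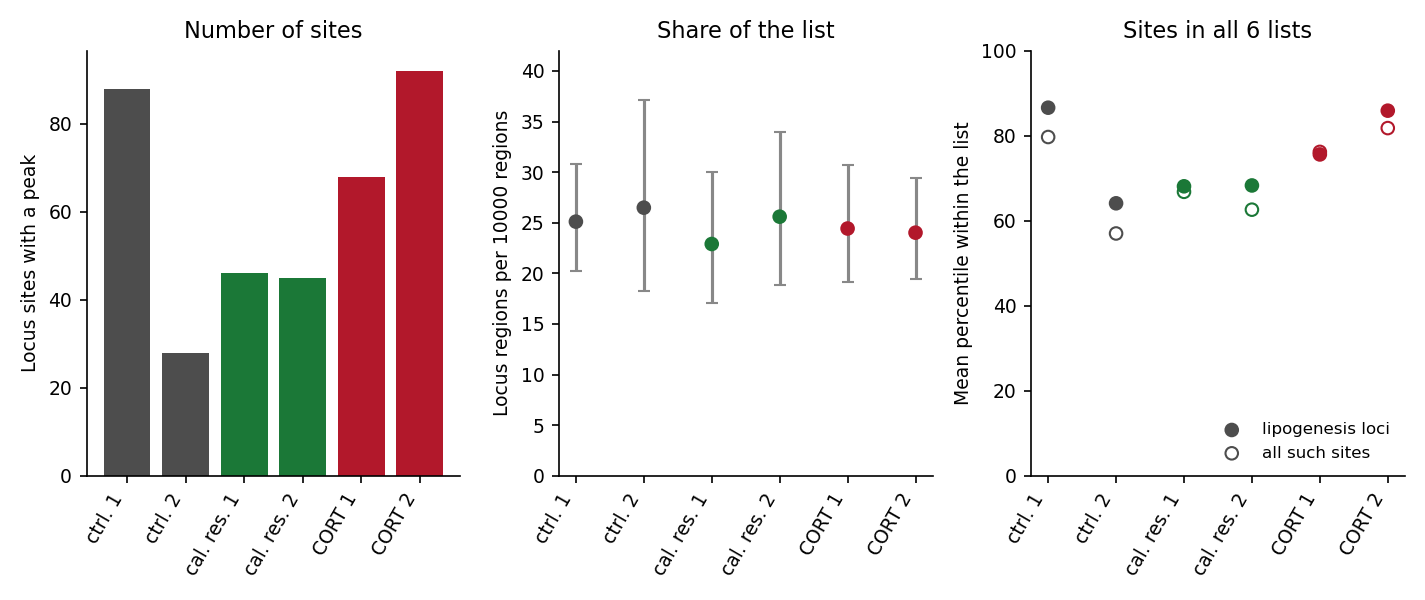
Left, locus sites with a peak in each library. Middle, locus regions per 10000 regions of the list with exact 95% binomial intervals. Right, mean percentile at the 23 locus sites found in all 6 lists (filled) and at all 6402 such sites (open). The number of sites ranged from 28 to 92 while the share of the list ranged from 22.90 to 26.49.

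Sites are counted as held by a group where each of the pair of libraries carried a peak. Ctrl. held 28 of the 120 sites in this sense, against 23.3% of all sites near protein-coding starts. The count was 36 for cal. res. (28.1% of all sites) and 57 for CORT (45.4% of all sites). A peak in all 6 lists was found at 23 sites (16.7% of all sites) and a peak in 1 list only at 37 (36.0% of all sites). Held by cal. res. and not by ctrl. were 13 sites (10.7% of all sites), and held by CORT and not by ctrl. 31 (24.5% of all sites). Where ctrl. lacked a peak altogether, 1 remained for cal. res. (0.746% of all sites) and 6 for CORT (4.35% of all sites). The shares at the loci were near those of all sites for each of these rules. The gains rested on the short list of ctrl. replicate 2: without it ctrl. held 88 sites, cal. res. gained 1 and CORT gained 6. Without either cal. res. library, the cal. res. gain was 22, and without CORT replicate 1 CORT held 92 sites and gained 65.

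By gene, the CORT gains were 6 at Acly, 5 at Elovl6, 4 each at Fasn and Mlxipl, 3 each at Srebf1, Acaca and Scd1, 2 at Pnpla3 and 1 at Thrsp. The cal. res. gains were 3 each at Scd1, Elovl6 and Acly, 2 at Mlxipl and 1 each at Srebf1 and Acaca. Fasn, Thrsp and Pnpla3 had none.

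The leading sites came next. They ranked highest at Thrsp and Pnpla3. The leading site of Thrsp, 5736 bp wide and covering the gene start (chr7:97414058-97419793), was at percentile 98.5 and 93.0 in the ctrl. pair, 97.2 and 95.7 under cal. res. and 98.9 and 99.5 under CORT. Cal. res. overlapped ctrl., with a difference in means of 0.734, and both CORT values exceeded the other 4, as they did with lists of equal length. A pair of further sites in all 6 lists stood 3.56 and 6.10 kb upstream, so 3 of the 7 Thrsp sites were shared by every library. The nearer of these was at 82.5 and 83.9 in the ctrl. pair, 78.1 and 69.1 under cal. res. and 97.6 and 96.3 under CORT, with no overlap between any of the groups. At equal list length it was at 49.2 and 83.9, 60.1 and 53.5, and 94.2 and 88.2, so cal. res. then overlapped ctrl. and CORT stayed above both. The leading site of Pnpla3, 11.61 kb upstream in intergenic sequence (chr15:84155717-84156742), was at 99.6 and 89.3 in the ctrl. pair, 86.9 and 93.8 under cal. res. and 96.6 and 97.5 under CORT. There ctrl. replicate 1 was highest and the groups overlapped, except that both CORT values exceeded both cal. res. values, which held with lists of equal length.

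Among the enzymes, Fasn had its leading site 6.37 kb upstream of the start, in an intron of the neighbouring gene Ccdc57 (chr11:120830489-120831355). Its percentiles were 98.1 and 88.5 in the ctrl. pair, 85.0 and 90.1 under cal. res. and 86.7 and 97.4 under CORT, so all groups overlapped in the full lists. With lists of equal length cal. res., at 72.6 and 85, lay below ctrl., at 94.6 and 88.5. CORT, at 68.6 and 91.9, overlapped both. At Scd1 the leading site lay 19.53 kb downstream of the start, beyond the end of the gene (chr19:44387300-44389392), at 96.7 and 77.7 in the ctrl. pair, 70.0 and 89.8 under cal. res. and 94.9 and 97.6 under CORT. At Elovl6 it lay on the start itself (chr3:129531782-129532864), at 95.8 and 77.7 in the ctrl. pair, 81.1 and 85.7 under cal. res. and 88.7 and 86.7 under CORT. At Elovl6 both cal. res. libraries ranked between the ctrl. libraries and below CORT, which they overlapped with lists of equal length. At Scd1 they overlapped the ctrl. libraries and lay below both CORT libraries. With lists of equal length cal. res. was at 45.4 and 84.7 there and CORT at 88 and 92.4, so cal. res. stayed below CORT. Acly had its leading site 37.00 kb downstream in its own introns (chr11:100490659-100491349), at 86.1 and 81.4 in the ctrl. pair, 62.1 and 87.3 under cal. res. and 2.83 and 83.5 under CORT. The CORT libraries stood at opposite ends there, and no difference between groups exceeded that spread. Within 50 kb of its gene start, Acaca had the leading site of lowest mean rank and no site in all 6 lists. Its leading site, 39.26 kb from the gene start in an intron (chr11:84168567-84169301), was at 72.3 and no peak in the ctrl. pair, 30.9 and 53.1 under cal. res. and 28.9 and 74.0 under CORT.

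Both transcription factor genes had their leading site at an inner transcript start. At Srebf1 the summit lay 12.09 kb downstream of the gene start (chr11:60209873-60210912) and 17 bases upstream of another start that RefSeq gives for the gene, at 60210471. The percentiles were 73.2 and 55.4 in the ctrl. pair, 61.5 and 16.5 under cal. res. and 78.0 and 70.1 under CORT. The cal. res. values overlapped ctrl. and both lay below CORT. With lists of equal length ctrl. was at 22.2 and 55.4, and cal. res. at 29.8 in replicate 1 with no peak in replicate 2. CORT was at 47.9 and 6.18, so the remaining cal. res. value lay between the CORT values. At Mlxipl the site 18.50 kb from the gene start (chr5:135106565-135110222) spanned the inner start at 135106918, the only start of the gene in the basic set of the annotation, with the summit 1426 bases downstream of it. It was at 95.0 and 51.9 in the ctrl. pair, 93.0 and 90.7 under cal. res. and 90.2 and 94.8 under CORT. Of the 6 libraries, ctrl. replicate 2 stood apart and the other 5 lay together. With lists of equal length it was at 85.4 and 51.9, 87.2 and 86, and 76.9 and 83.8, so both cal. res. values were above all others.

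**Figure D3:**
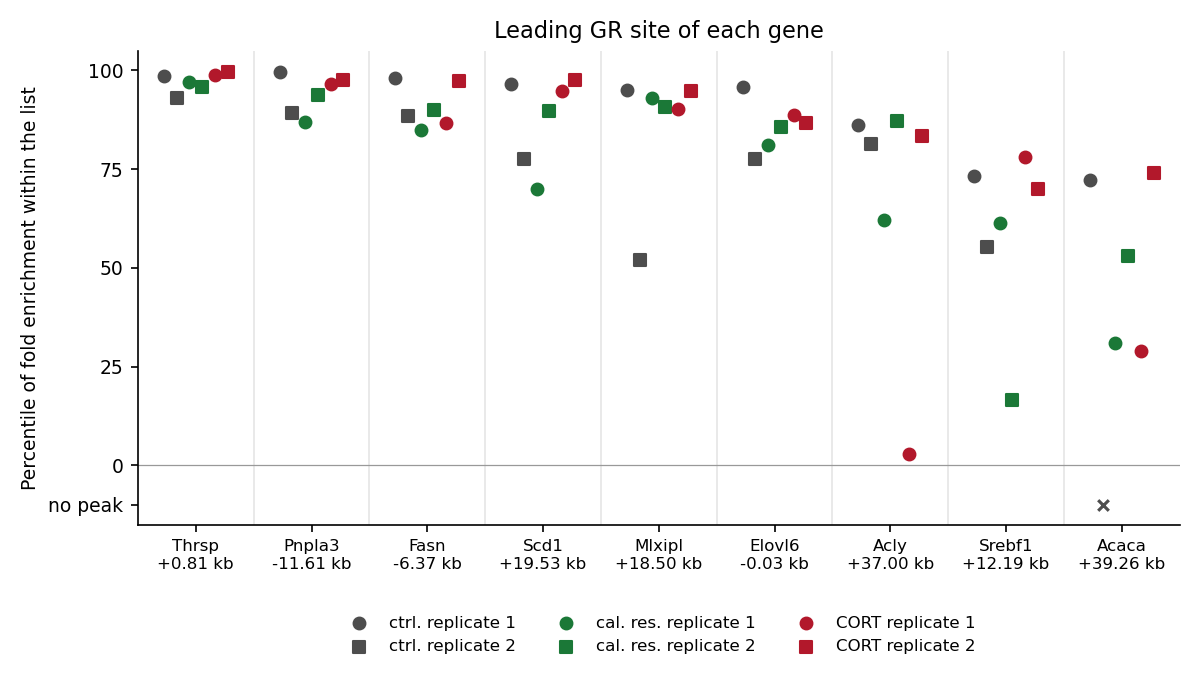
Percentile of fold enrichment within the list, from 0 to 100, at the leading site of each gene in each of the 6 libraries. Circles are replicate 1 and squares replicate 2, and a cross marks a list without a peak. Thrsp, Pnpla3 and Fasn stood at 85.0 or above in every library, while Acaca had no peak in ctrl. replicate 2.

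The annotated starts were read separately. A site held by ctrl. lay within 1 kb of the start at 7 of the 9 genes, against 20.9% of protein-coding genes. For cal. res. it was 6 of 9 (17.5% of genes) and for CORT 8 of 9 (32.3% of genes). At Srebf1 and Scd1 CORT held a start site and cal. res. held none, which was so for 15.9% of protein-coding genes.

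At the start of Srebf1 the percentiles were 51.6 and 17.2 in ctrl. and 52.7 and 69.1 in CORT, and neither cal. res. list had a peak. The lists reached a q-value of 0.0995 to 0.0997 in cal. res., so the absence holds at a loose cutoff. In lists of equal length a peak remained only in ctrl. replicate 2, at 17.2, and CORT replicate 2, at 4.63. The Scd1 start was at 84.0 and no peak in ctrl. and at 83.1 and 94.7 in CORT, and cal. res. again had no peak. The 3 libraries with a peak at Scd1 were those that share a style of library name, so the part of library style in this pattern was not tested. Without ctrl. replicate 1 no ctrl. peak remained at the Scd1 start. The same 3 libraries had a peak there with lists of equal length, at 53.4, 60.1 and 83.4.

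At the start of Fasn (chr11:120823700-120825139) the percentiles were 91.5 and 52.4 in the ctrl. pair, 49.9 and 45.1 under cal. res. and 96.0 and 90.1 under CORT. Fold enrichment over the local background of each list was 14.2 and 4.63, 5.71 and 4.77, and 24.0 and 14.9. Both cal. res. values lay below all 4 others on the percentile scale, the nearest being ctrl. replicate 2. In fold enrichment both cal. res. values exceeded ctrl. replicate 2. With lists of equal length the values were 75.2 and 52.4, 8.67 and 17.4, and 90.4 and 68.9, again with cal. res. lowest. At the start of Acly (chr11:100527042-100529359) they were 78.1 and 71.0 in the ctrl. pair, 55.2 and 24.3 under cal. res. and 81.7 and 92.2 under CORT, and the 3 groups did not overlap. With lists of equal length CORT, at 56.8 and 75.5, overlapped ctrl., at 36.3 and 71.0, while cal. res. was at 18.3 and without a peak. A weak peak at the outer start of Mlxipl was at 33.0 and 9.11 in the ctrl. pair, 1.96 and 39.7 under cal. res. and 13.5 and 68.3 under CORT, with all groups overlapping. At Acaca the gene start had a peak in CORT replicate 1 alone, at 11.7. Basic transcripts of Acaca begin 43.45 and 65.77 kb further in, the second of them beyond the 50 kb limit.

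Pnpla3 had a narrow site on its start in CORT alone, at 38.6 and 39.0, and next to it, 0.86 kb downstream, a site in all 6 lists. That one was at 97.7 and 69.3 in the ctrl. pair, 86.5 and 88.9 under cal. res. and 96.2 and 96.1 under CORT. Cal. res. lay between the ctrl. libraries and below CORT, also with lists of equal length.

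Over the 23 sites in all 6 lists, both cal. res. libraries ranked below both CORT libraries at 14, against 49.9% of all such sites, and above them at 0 (7.28% of all such sites). With lists of equal length this was so at 7 of 15 sites below (28% of 3645 such sites) and 3 above (27.8%), so the ordering over all sites was no longer to one side. Within 1 kb of any protein-coding start cal. res. lay below CORT in the full lists at 5 of 7 sites (72.3% of all such sites). Farther away this was so at 9 of 16 (36.2% of all such sites). The split by distance was not made with lists of equal length. Against ctrl., both cal. res. libraries ranked below at 6 of 23 sites (23.4% of all such sites) and above at 0 (10.2% of all such sites). The 6 were the starts of Fasn and Acly, the Fasn site at 24.15 kb, the Srebf1 site at 18.10 kb upstream, the Thrsp site at 3.56 kb upstream and the Pnpla3 site at 24.43 kb. Both CORT libraries ranked above both ctrl. libraries at 3 (28.1% of all such sites), at the Acly start and at the Thrsp sites at 0.81 and 3.56 kb, and below them at 0 (4.80% of all such sites). Neither contrast with ctrl. stayed to one side with lists of equal length. Both cal. res. libraries then ranked below both ctrl. libraries at 2 of 15 sites (22.7% of 3645 such sites) and above at 1 (20.8%). For CORT against ctrl. it was 2 below (19.3%) and 2 above (19.7%). None of these counts was tested against its share over all sites. Base composition moved with position: the median GC content of the 200 bases around the summit was 61.5% at the 12 sites within 1 kb of a start and 51.2% at the other 108. Its part in the ordering was not tested.

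**Figure D4:**
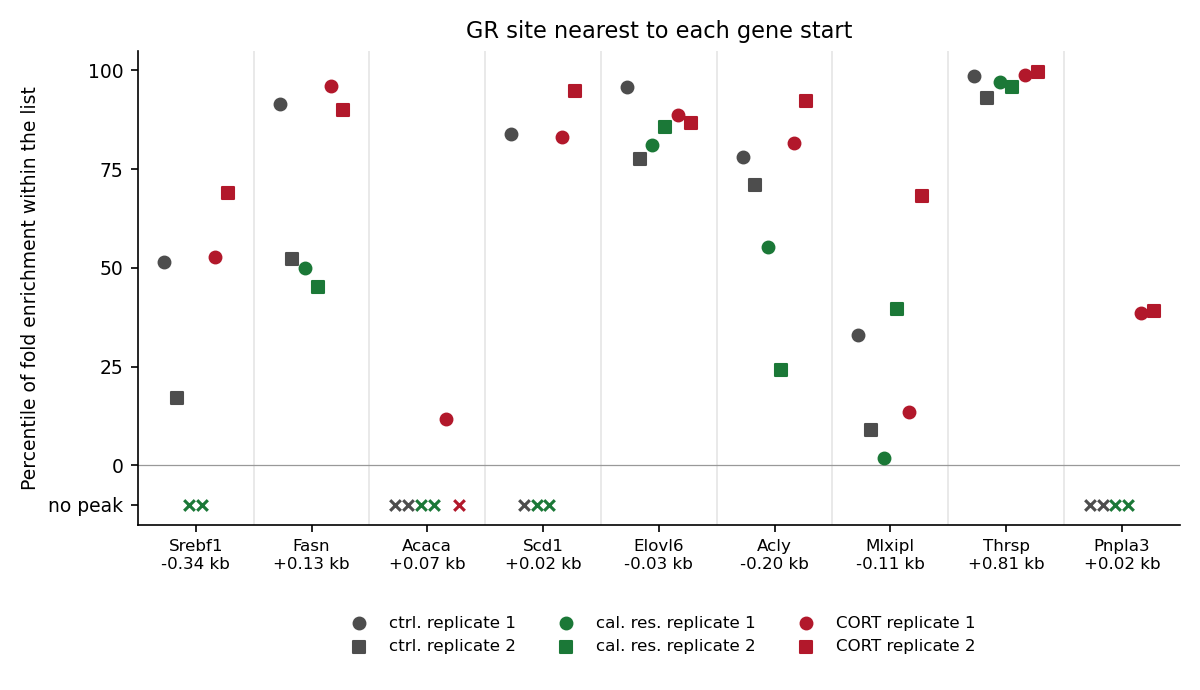
Percentile of fold enrichment within the list, from 0 to 100, at the site nearest to the start of each gene in each of the 6 libraries. Circles are replicate 1 and squares replicate 2, and crosses mark lists without a peak. At Srebf1 and Scd1 both cal. res. lists lacked a peak. At Acaca and Pnpla3 both ctrl. and both cal. res. lists lacked one, and Acaca had one in CORT replicate 1 alone. At Fasn and Acly the cal. res. values lay below the others.

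Sites held by CORT and not by cal. res. numbered 25 (20.1% of all sites), with 2 to 4 at each of the 9 genes. The reverse was seen at 4 sites (2.85% of all sites), 2 at Scd1 and 1 each at Srebf1 and Elovl6. Both counts were near the share over all sites. Of these the strongest stood 27.61 kb downstream of the Scd1 start and overlapped FOXO1. It was at 81.8 and no peak in the ctrl. pair, 75.8 and 82.5 under cal. res., and no peak and 86.6 under CORT, so it was missing in 1 library of each of the other groups.

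The 5 highest-ranked sites held by cal. res. or CORT with no ctrl. peak were modest in rank. The Elovl6 site 5.07 kb upstream, in the window with ca repeats shown above, was at 48.1 and 59.9 in cal. res. and at 47.7 in CORT replicate 1. The Fasn site 29.28 kb downstream, in a coding exon of Dus1l, was at 41.2 and 78.7 in CORT and at 29.0 in cal. res. replicate 1. The other three were the Pnpla3 start and sites 34.14 kb upstream of Pnpla3 and 49.34 kb upstream of Mlxipl, all with a peak in the CORT libraries alone.

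The FOXO1 list reached a q-value of 9.84e-06, a stricter limit than that of the GR lists. FOXO1 regions of cal. res. liver lay within 50 kb of 7 of the 9 genes (33.3% of protein-coding genes), the exceptions being Acaca and Acly. Of the 120 GR sites 16 overlapped one (13.5% of all sites). Among the sites held by all 3 groups the count was 12 of 23 (47.8% of all such sites). Both counts were near those of all sites. By gene, 5 were at Mlxipl, 3 each at Scd1, Elovl6 and Pnpla3, and 1 each at Srebf1 and Thrsp. Fasn had a FOXO1 region 48.30 kb downstream of its start (chr11:120776071-120776429) that met no GR site.

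The FOXO1 regions at Mlxipl formed a row from 11.15 to 28.88 kb behind the outer start, around the inner one. The first (chr5:135100704-135101386) was the strongest at the loci, at percentile 90.5 of the FOXO1 list. The GR site on it was at 97.1 and 21.7 in the ctrl. pair, 90.4 and 90.9 under cal. res. and 93.6 and 93.9 under CORT. Here ctrl. replicate 2 was low and the other libraries were together above 90. The FOXO1 region on the Elovl6 start ranked at 87.4, that at the Pnpla3 leading site at 72.1 and that at the Thrsp upstream summit at 54.9.

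GR peaks on FOXO1 regions ranked higher than the other locus peaks in every library. The median percentiles with and without overlap were 93.8 and 41.4 in ctrl. replicate 1 and 66.7 and 53.9 in ctrl. replicate 2. They were 86.2 and 46.4 in cal. res. replicate 1 and 84.1 and 53.1 in replicate 2. In CORT they were 89.5 and 40.1, then 90.8 and 52.6. The same order was seen over all sites near protein-coding starts, with medians from 69.3 to 84.7 with overlap and from 38.2 to 44.4 without. FOXO1 in ctrl. and CORT liver was not analysed here.

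**Figure D5:**
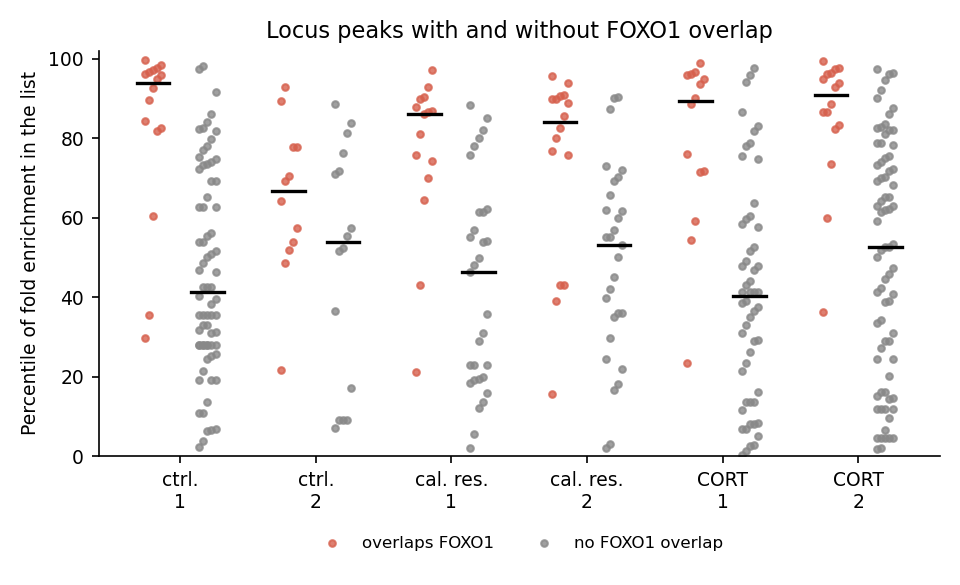
Percentile of fold enrichment within each GR list, from 0 to 100, of the locus peaks that overlap a FOXO1 region (red) and of those that do not (grey). Points are sites and bars are medians. The red median is above the grey one in all 6 libraries, from 66.7 against 53.9 in ctrl. replicate 2 to 93.8 against 41.4 in ctrl. replicate 1.

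Other genes of the pathway were read the same way, from a list of 21 that supply NADPH and acetyl-CoA, elongate and desaturate fatty acids, assemble triglycerides or control SREBP-1 and ChREBP. They had 251 sites in all, summed gene by gene, with a median of 10 a gene, from 3 at Scd2 and Mid1ip1 to 37 at Dgat2, the enzyme of the last step of triglyceride synthesis. Gpam, the acyltransferase of the first step, had 31. A start site was held by ctrl. at 9 of the 21 (20.9% of protein-coding genes), by cal. res. at 10 (17.5%) and by CORT at 18 (32.3%). FOXO1 regions lay at 13 of the 21 (33.3% of protein-coding genes), with 8 at Dgat2, 6 at Gpam and 5 at Insig1. Insig1 retains SREBP in the endoplasmic reticulum. The windows of Fads1 and Fads2 overlap, so their sites were counted for both.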

How the data were processed

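GR ChIP-seq was read in 6 liver libraries, 2 each of ctrl., cal. res. and CORT, and FOXO1 ChIP-seq in 1 list merged from 2 cal. res. libraries. The authors aligned reads to mm10 with BWA MEM, filtered them with Picard and Bamtools, removed blacklisted regions and called peaks with MACS2, per library for GR. Their tool versions stand in the methods of the study and are not repeated here, and the use of an input control in peak calling is not given in the sources used here. The deposited lists give fold enrichment (a ratio of signal to the expected background) and the −log10 of the p-value and of the q-value. The deposited display score was not used. The lists hold no read counts, so depth is unknown and a short list may reflect few reads. Fold enrichment can depend on depth, so it was turned into a percentile within each list, which in turn rises with list length at shared sites. Percentiles were therefore recomputed with the 12458 regions of lowest p-value from every list, for all contrasts, a step extended to cal. res. against CORT after seeing the data.

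Rows with the same interval were counted once. Regions sharing at least 1 bp were merged into sites with Python 3.11.15, numpy 2.4.6, pandas 2.3.3 and scipy 1.17.1. Sites centred within 50 kb of a gene start (GENCODE M21) were assigned to the gene, and groups were compared by two-sided exact permutation tests over libraries. Sites named singly were the leading site of each gene, the site nearest to the start within 1 kb, and the 5 highest-ranked sites held by cal. res. or CORT without a ctrl. peak. Other sites named were chosen after their values were seen. The members and lists were chosen with earlier results of these data known. The procedure was tested on simulated data. Alternatives covered the q-value limit, list length, window, assignment, overlap, the definition of a held site and each library left out.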

Additional observations from a re-analysis of the deposited data

How the results depend on the processing

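No difference between groups at the loci could pass a test with 2 against 2 libraries, and depth is unknown, so the limits lie in the lists themselves. With lists cut to equal length, cal. res. minus ctrl. became 1.50 sites and 0.80 regions per 10000, and CORT minus ctrl. became 1.20 regions per 10000. With a q-value limit of 1e-05, cal. res. minus ctrl. became 4.63 percentile points. These 4 values changed sign, and the cause was not tested.

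The count gained by cal. res. was 7 with equal lists, 8 within 25 kb and 5 when 1 library was enough to hold a site. The count gained by CORT was 20 at the stricter q-value, 5 with equal lists, 17 within 25 kb and 20 when each site went to its nearest gene. Sites held by ctrl. were 17 at the stricter q-value, 46 within 100 kb and 88 when 1 library was enough. Sites held by cal. res. were 57 within 100 kb and 55 when 1 library was enough. Sites held by CORT were 35 at the stricter q-value, 23 with equal lists, 88 within 100 kb and 103 when 1 library was enough. Sites overlapping FOXO1 were 10 within 25 kb.

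Leaving out 1 library at a time, cal. res. minus ctrl. ran from -42.50 to 17.50 sites, from -2.90 to -0.20 regions per 10000 and from -15.32 to 4.13 percentile points. CORT minus ctrl. ran from -8.00 to 52.00 sites, from -2.27 to -0.89 regions per 10000 and from -4.63 to 16.63 percentile points, and was -0.10 points without CORT replicate 2. Gains ran from 1 to 22 in cal. res. and from 6 to 65 in CORT. Held sites ran from 28 to 88 in ctrl., from 36 to 46 in cal. res. and from 57 to 92 in CORT, and those overlapping FOXO1 stayed at 16.

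Deviations of same-numbered libraries from their group means correlated at -0.047, -0.125 and 0.074 over 8097 sites, which gave no sign of pairing by number. The ctrl. replicates also differed in name style and list length, so these values cannot decide whether libraries were paired. With a replicate block the differences were the same (-12.50 and 22.00 sites, -1.55 and -1.58 regions per 10000, -7.12 and 5.38 percentile points), with exact sign-flip p = 1 for sites, 0.5 for regions per 10000 and 1 for percentiles in both contrasts, where 0.5 is the smallest possible. Starts of the basic transcript set, an alternative chosen after seeing the data, gave -13.00 and 21.50 sites and changed no direction.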
